A study of Mus musculus with 10 samples.

Results

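The early growth response factors Egr1, Egr2 and Egr3, their corepressors Nab1 and Nab2, and the orphan nuclear receptors Nr4a1, Nr4a2 and Nr4a3 were followed through an RNA sequencing study of mouse macrophages under physical confinement. The 8 genes were taken by symbol from the 57010 gene identifiers of the deposited table. All 8 passed the filter on low values and so belonged to the 12455 genes tested. The cells were bone marrow-derived macrophages, which are grown from marrow precursors, here for 7 days in medium with 20 ng/mL of the growth factor MCSF. The marrow came from wild-type (WT) mice or from mice lacking WASp (WKO), a protein of blood cells that starts branched actin assembly. Confined cells spent 1 h at a height of 3 µm under a micropillar device, and unconfined cells are labelled only as controls, so that how these were plated and handled is not known. Each genotype contributed 3 confined and 2 unconfined libraries. Nothing in the labels says that replicates came from separate animals or cultures, and the spread between them may therefore be technical.

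EGR factors are zinc-finger transcription factors that bind GC-rich sites. They belong to the immediate early genes, which are transcribed within minutes of a stimulus and need no newly made protein for it. The NAB proteins bind EGR factors and recruit the CHD4-NuRD complex, which represses the bound gene, and the Nab2 gene is itself known to be activated by EGR factors, which closes a feedback loop. NR4A receptors are nuclear receptors without a known classical ligand that act mainly through their amount, and their genes are textbook targets of the cyclic AMP-responsive factor CREB. In macrophages they are known as brakes on NF-kB-driven inflammatory transcription.

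The sequences just upstream of the annotated start sites are shown for the NR4A genes and Egr2, because all 3 NR4A genes rose with confinement while Egr2, unlike Egr1, passed the test in neither genotype. They were taken from RefSeq start-site windows (GRCm38.p6, from 250 bases before the start to 50 after it), in which 6 of the 8 genes were found, Egr1 and Egr3 not among them. Each runs 5′ to 3′ along the strand of its gene. Capitals mark every TGACG on either strand, the half-site of the cyclic AMP response element, and in Egr2 also the CArG box, the binding sequence of serum response factor.
Nr4a1: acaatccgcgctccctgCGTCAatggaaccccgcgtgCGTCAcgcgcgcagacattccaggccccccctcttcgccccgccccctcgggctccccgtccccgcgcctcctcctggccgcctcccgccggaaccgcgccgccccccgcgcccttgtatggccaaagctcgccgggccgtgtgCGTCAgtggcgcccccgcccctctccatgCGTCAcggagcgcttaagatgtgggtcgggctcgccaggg
Nr4a2: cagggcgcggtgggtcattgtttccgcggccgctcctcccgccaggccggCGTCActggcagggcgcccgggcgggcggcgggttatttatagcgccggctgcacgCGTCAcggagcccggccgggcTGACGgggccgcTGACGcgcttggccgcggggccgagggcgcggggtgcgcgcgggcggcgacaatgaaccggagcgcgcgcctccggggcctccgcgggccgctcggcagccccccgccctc
Nr4a3: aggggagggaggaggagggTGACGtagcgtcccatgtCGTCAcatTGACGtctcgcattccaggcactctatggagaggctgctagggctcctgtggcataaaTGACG
Egr2: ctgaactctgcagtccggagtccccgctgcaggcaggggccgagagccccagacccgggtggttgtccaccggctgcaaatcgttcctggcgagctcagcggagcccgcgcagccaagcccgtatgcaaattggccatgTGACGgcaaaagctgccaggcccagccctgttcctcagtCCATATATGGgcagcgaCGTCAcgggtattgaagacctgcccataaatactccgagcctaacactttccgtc
The Nr4a1 stretch lies at chr15:101266596-101266845 on the plus strand, and is intronic in a longer GENCODE transcript of the gene. That of Nr4a2 lies at chr2:57124004-57124253 on the minus strand, just upstream of the GENCODE gene. The Nr4a3 stretch lies at chr4:48045055-48045162 on the plus strand and stops 10 bases into the first GENCODE exon. It covers bases -250 to -143 from the RefSeq start. Its last half-site (-147 to -143) lies within that exon, and the stretch was extended past the exon start to include it. The Egr2 stretch lies at chr10:67537619-67537868 on the plus strand, belongs to 1 of 5 RefSeq windows of that gene, and is intronic in longer GENCODE transcripts.

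Each NR4A window held 4 copies of TGACG counted over both strands. Of the 32851 RefSeq windows of the same length, which overlap where a gene has several starts, 20.8% held at least 1 copy and 0.231% held 4 or more. The Egr2 window held 2 copies, the Nab1 window 1 and the Nab2 window 0. In Nr4a1 all 4 copies lay within the longer word TGCGTCA, which was looked for after the sequences had been seen. No other window held it 4 times, and 2.12% held it at least once. The CArG box, found once in Egr2 between its half-sites, was present in 1.63% of windows. The EGR binding word GCGNGGGCG occurred 3 times in the Nab1 window and once each in those of Nr4a1 and Nr4a2, against 5.55% of all windows with at least 1. The words TGACGTCA (the full response element), TGANTCA (AP-1) and AAAGGTCA (the NR4A monomer element) were absent from the windows of the 6 genes. Among 66 other genes with 4 or more half-sites in a window, 55 were tested. With confinement 0 of them were called higher and 1 lower in WT, against 0.891% and 0.265% of all tested genes, and 3 (Aff4, Coq10b and Dusp8), or 5.45%, higher and 0 lower in WKO, against 1.49% and 0.233%. Of 9 other tested genes with 2 or more TGCGTCA words, 0 were called in either genotype. Of 141 with a CArG box, 3 (2.13%) were called higher and 0 lower in WT, and 4 (2.84%) higher and 1 lower in WKO. These matches describe letters and are not measured binding.

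**Figure D1:**
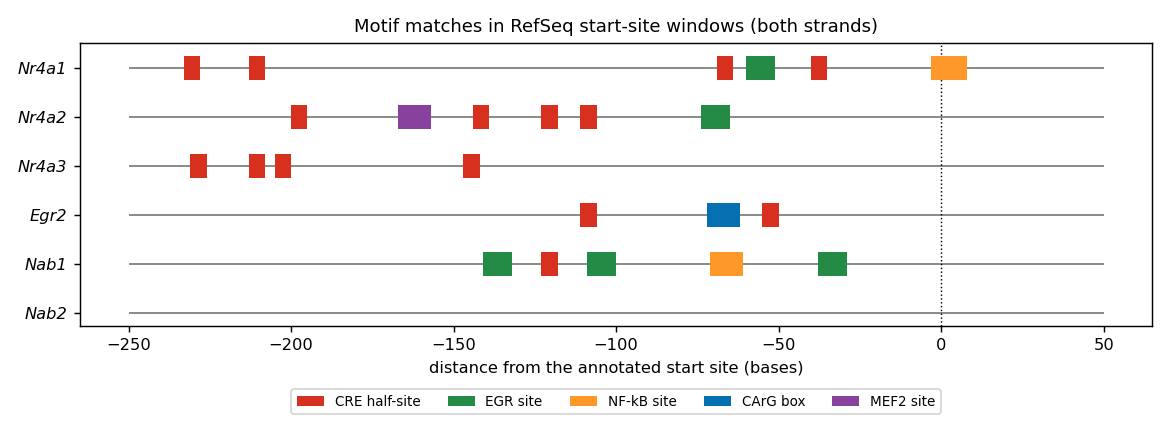
Positions of motif matches in the RefSeq start-site windows of 6 genes, with the distance from the annotated start site in bases on the horizontal axis and boxes for matches on either strand. The 3 NR4A rows each carry 4 half-sites of the cyclic AMP response element (CRE), and the Nab2 row is empty.

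The values are normalized read counts, that is, reads divided by 1 size factor per library. The libraries held 13295701 to 19329908 reads, and 3 reads, the detection floor used here, were worth 2.35 to 3.59 normalized counts. Was, the targeted gene, had 1308 and 1639 normalized counts in the WT unconfined libraries and 1570 to 1649 in the WT confined ones, against 141 and 154 in WKO unconfined and 96.9 to 125 in WKO confined libraries, which matches the labels. The 9 macrophage markers (among them Csf1r, Adgre1 and Lyz2) all had reads in every group and summed to 202159 to 226183 normalized counts in the WT libraries and 259174 to 334641 in the WKO libraries. Markers of other marrow cells were also present and differed between the groups. The 12 neutrophil and progenitor markers summed to 7028 to 10967 in WT unconfined, 25128 to 30308 in WKO unconfined, 2584 to 7994 in WT confined and 7036 to 28307 in WKO confined libraries. The 6 B cell markers summed to 810 to 874, 4047 to 4417, 410 to 793 and 1572 to 5198 in the same order. The 14 stromal cell markers summed to 1033 to 2148, 2898 to 3405, 273 to 908 and 1129 to 12098, and replicate 5 of the WKO confined group stood apart with the highest value of 13 of them. T and NK cell, dendritic cell and erythroid markers summed to at most 84.4 in any library. The part of these cells in the values that follow was not tested, except for the stromal markers, which entered an alternative model as a covariate. In such bulk libraries fewer cells of a type and less RNA per cell cannot be told apart.

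Confinement raised Egr1 and all 3 NR4A genes in both genotypes, by fitted factors of at least 9.64 in WT cells and 15.8 in WKO cells. Egr3 rose in WKO cells and did not pass the test in WT cells. Egr2, Nab1 and Nab2 passed it in neither genotype in the limma fit. In WT, 4 of the 8 genes were called higher and 0 lower by limma at an adjusted p under 0.05, where 0.891% of all tested genes were called higher and 0.265% lower. In WKO, 5 were called higher and 0 lower, against 1.49% and 0.233% of all genes. Every confined library lay above every unconfined one for 6 of the 8 genes in WT and 7 in WKO, a separation shown by 18.3% and 14.5% of all genes. At an unadjusted p under 0.05 there were 5 and 7, against 12.2% and 14.1% of all genes in either direction. The median log2 fold change of the 8 genes was 2.95 in WT and 3.99 in WKO, and that of all tested genes was -0.01 in both.

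**Figure D2:**
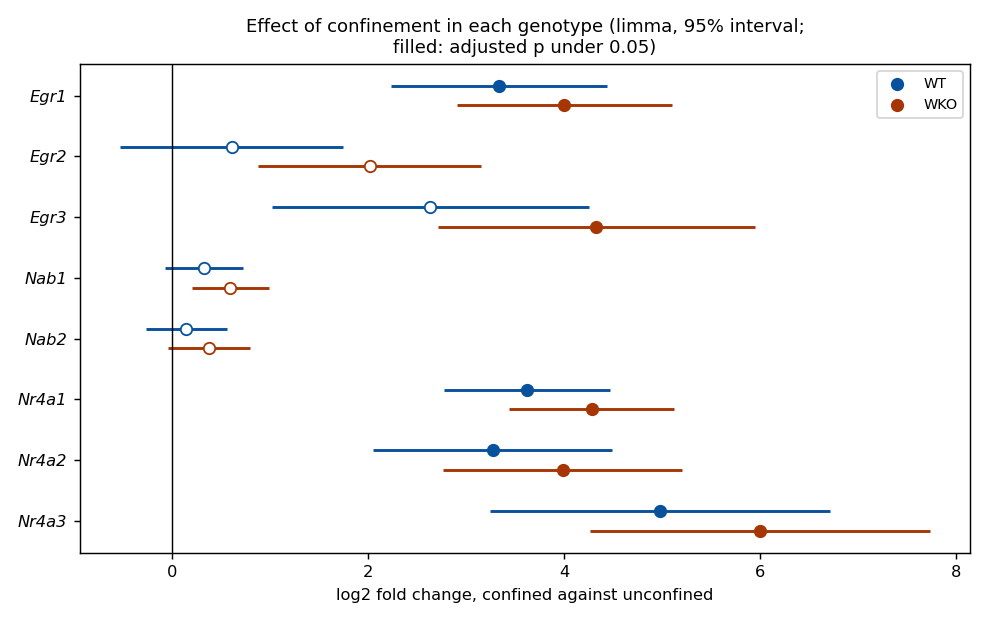
Effect of confinement on the 8 genes in each genotype, as limma's log2 fold change with its 95% interval; filled points passed an adjusted p of 0.05. Egr1 and the NR4A genes lie between 3.27 and 6.00 in both genotypes, and the NAB genes below 0.60.

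Egr1 (chr18:34859823-34864984, plus strand, GENCODE M21 on GRCm38) encodes the EGR factor best known as an immediate early gene. It measured 372 and 336 normalized counts in the WT unconfined libraries (replicates 1 and 3) and 2348, 3038 and 6414 in the WT confined libraries (replicates 2, 3 and 6). In WKO it measured 377 and 202 unconfined (replicates 1 and 3) and 4346, 2281 and 8827 confined (replicates 1, 2 and 5). Every confined library exceeded every unconfined one, and the confined libraries themselves spread from 2281 to 8827. The WT mean went from 354 ± 25.8 (SD, n = 2) to 3934 ± 2176 (SD, n = 3), and that of WKO from 290 ± 123 (SD, n = 2) to 5152 ± 3346 (SD, n = 3). On the log2 scale Egr1 rose by 3.33 in WT (SE 0.504, limma adjusted p 0.00767) and 4.00 in WKO (SE 0.504, limma adjusted p 0.00227). The WT value did not pass without the mean-variance trend (limma adjusted p 0.0833). In WT the call was lost without unconfined replicate 1 or 3, which leaves a lone control, at limma adjusted p-values of 0.0881 and 0.0955. In WKO it held without any single library.

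Egr2 (chr10:67535475-67542188, plus strand) encodes a close relative of Egr1, known in macrophages for its part in differentiation and alternative activation. It was already abundant in unconfined cells, at 898 and 1200 normalized counts in WT and 682 and 387 in WKO. In confined libraries it measured 1168, 1489 and 2280 in WT and 1290, 1298 and 5374 in WKO. The WT conditions overlapped, since the lowest confined library lay below the higher unconfined one. The WKO conditions did not overlap, and confined replicate 5 stood far above the other 2 confined WKO libraries and at 2.36 times the highest confined WT library. Its log2 fold change was 0.61 in WT (95% interval -0.53 to 1.75, limma adjusted p 0.695) and 2.02 in WKO (95% interval 0.88 to 3.15, limma adjusted p 0.0883). Without WKO confined replicate 5 the WKO value was smaller, 1.33, and passed (limma adjusted p 0.0339), and it also passed without WKO confined replicate 1 (2.36, limma adjusted p 0.0250). It passed as well with DESeq2 (2.31, adjusted p 0.0322) and, in limma, with array weights, the replicate block and the stromal covariate (1.49, 1.39 and 1.91, adjusted p 0.0118, 0.00817 and 0.0154), and not with edgeR (adjusted p 0.0987). Egr2 in WKO thus passed in 6 of the 23 alternatives run, all named here. The replicate block fits WKO confined replicate 5 and WT confined replicate 6 exactly, since no other library shares their numbers. It therefore sets WKO confined replicate 5 aside as well.

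Egr3 (chr14:70077203-70082614, plus strand) encodes the third EGR factor, known with Egr2 for its part in T cell tolerance. It was low in unconfined cells, at 74.1 and 49.9 normalized counts in WT and 16.8 and 33.0 in WKO. Confined libraries held 319, 358 and 492 in WT and 235, 241 and 2102 in WKO. The conditions did not overlap in either genotype, and WKO confined replicate 5 stood far above the other 2 confined WKO libraries and at 4.27 times the highest confined WT library. Egr3 rose by 4.33 on the log2 scale in WKO (SE 0.741, limma adjusted p 0.0129), and its log2 difference in WT was 2.64 (SE 0.741, limma adjusted p 0.145). Without WKO confined replicate 5 it was 3.28 in WKO and the WT value passed as well (limma adjusted p 0.000147 and 0.000258), since that library also enters the shared estimate of spread. The WT value passed in 5 of 22 alternatives. The others were array weights, only the groups compared, the replicate block and the stromal covariate. The WKO value did not pass with only the groups compared or without the mean-variance trend. The WKO call was lost without WKO unconfined replicate 1 or 3 (limma adjusted p 0.194 and 0.0639). Egr4, the remaining EGR gene, fell under the filter. It had no read in the unconfined libraries, 0, 4 and 0 reads in WT confined and 13, 0 and 11 in WKO confined libraries, and was not tested.

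**Figure D3:**
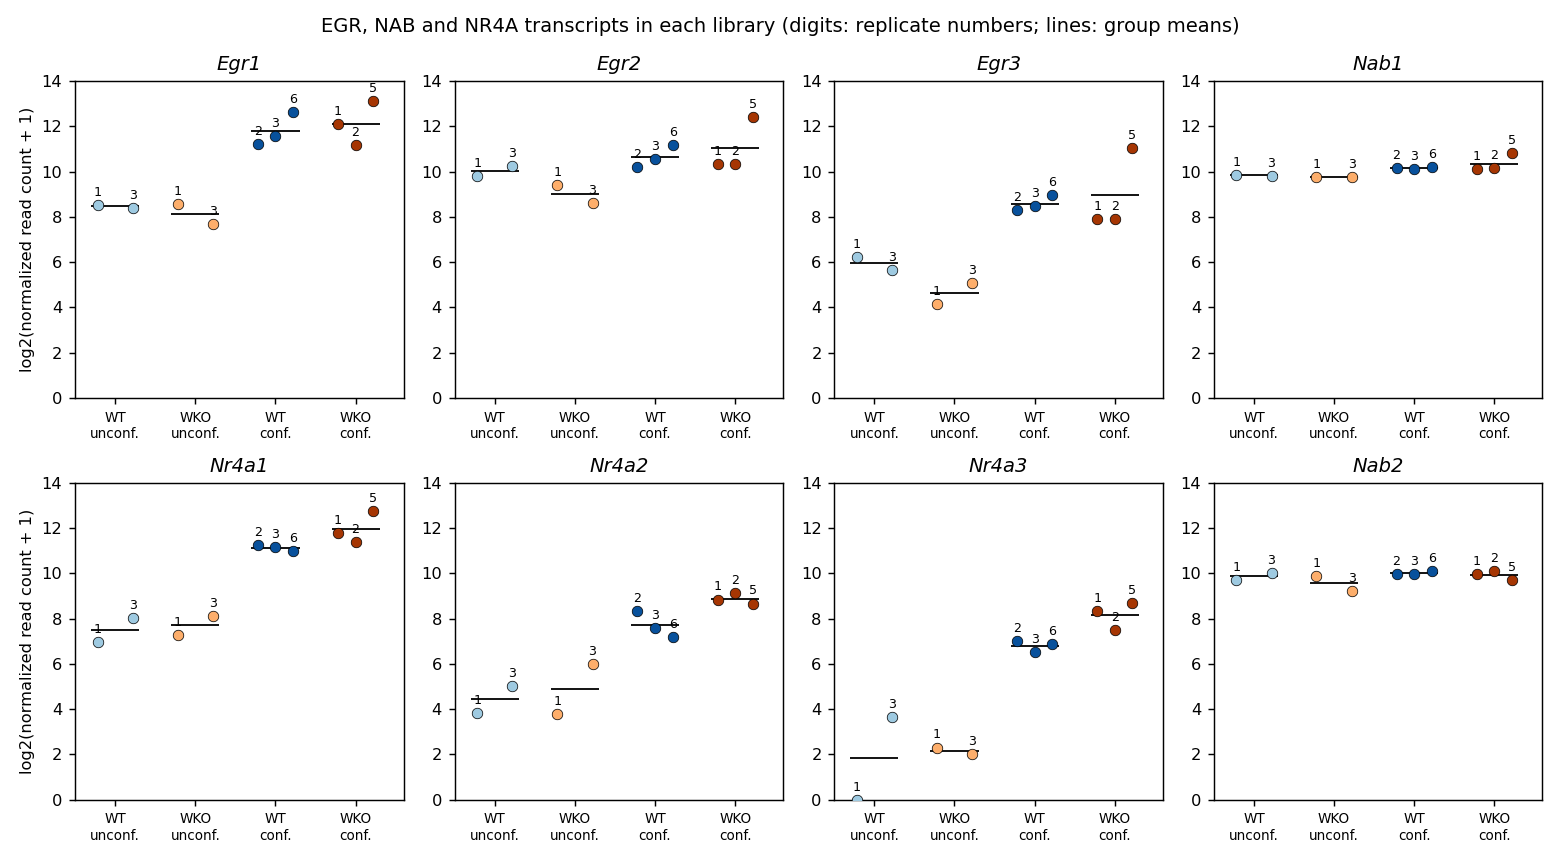
Normalized read count of each gene in each library on a log2 scale after adding 1, by group, with replicate numbers beside the points and lines at group means. Confined and unconfined libraries are apart for Egr1, Egr3 and the NR4A genes and intermixed for Nab2, and WKO confined replicate 5 is the highest library for 6 of the 8 genes.

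The corepressors were abundant before confinement and passed the test in neither genotype. Nab1 (chr1:52457294-52500679, minus strand) measured 933 and 896 normalized counts in unconfined WT libraries and 872 and 860 in unconfined WKO ones. After confinement it measured 1154, 1102 and 1182 in WT and 1105, 1132 and 1788 in WKO. Each confined library exceeded each unconfined one, by small margins apart from WKO replicate 5. The log2 fold change was 0.32 in WT (95% interval -0.07 to 0.72, limma adjusted p 0.515) and 0.59 in WKO (95% interval 0.20 to 0.99, limma adjusted p 0.154). Without WKO confined replicate 1 the WKO value was 0.72 and passed (limma adjusted p 0.0328), as it did with DESeq2 (0.63, adjusted p 0.0414) and with array weights (0.43, limma adjusted p 0.0236). These were 3 of 23 alternatives. The WKO value was 0.37 without WKO confined replicate 5 and 0.33 with the replicate block, passing in neither (limma adjusted p 0.177 and 0.573).

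Nab2 (chr10:127660918-127668568, minus strand) measured 838 and 1033 normalized counts in WT unconfined, 944 and 601 in WKO unconfined, 987, 992 and 1109 in WT confined and 1012, 1103 and 834 in WKO confined libraries. All 4 groups overlapped with their neighbours. Confinement differed from no confinement by 0.14 on the log2 scale in WT (95% interval -0.27 to 0.56, limma adjusted p 0.820) and 0.37 in WKO (95% interval -0.04 to 0.79, limma adjusted p 0.402). WKO confined replicate 5, which held the most Egr1, Egr2 and Egr3, held the least Nab2 of the confined libraries. Nab2 counts are uncertain, because 35.7% of its exon length overlaps the opposite-strand gene Gm16229 and the use of strand in counting is not given in the sources used here. Gm16229 itself had at most 2.06 normalized counts in any library. Shorter opposite-strand overlaps join Nab2 to the more abundant genes Nemp1 (151 bases, 292 to 457 normalized counts) and Stat6 (40 bases, 3814 to 4609 normalized counts).

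All 3 NR4A genes were called higher in both genotypes in the limma fit, and of these only Nr4a1 in both without the mean-variance trend. Nr4a1 (chr15:101254269-101274795, plus strand), also called Nur77, measured 123 and 260.1 normalized counts in unconfined WT cells and 153 and 279 in unconfined WKO cells. After confinement it measured 2398, 2272 and 2006 in WT and 3532, 2687 and 6916 in WKO. Confined and unconfined libraries lay far apart, and the 3 confined WT libraries lay close to each other. On the log2 scale the rise was 3.62 in WT (SE 0.387, limma adjusted p 0.00149) and 4.28 in WKO (SE 0.387, limma adjusted p 0.000333). Both calls held in all 23 alternatives run, including each library left out.

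Nr4a2 (chr2:57106830-57124003, minus strand), or Nurr1, was low in unconfined cells, at 13.3 and 31.7 normalized counts in WT and 12.8 and 63.0 in WKO. Confined libraries held 317, 192 and 146 in WT and 458, 558 and 405 in WKO. The conditions did not overlap, and replicate 3 was the higher unconfined library in both genotypes. Nr4a2 rose by 3.27 on the log2 scale in WT (SE 0.559, limma adjusted p 0.0162) and 3.98 in WKO (SE 0.559, limma adjusted p 0.00409). Neither value passed without the mean-variance trend (limma adjusted p 0.108 in WT and 0.0585 in WKO). In WT the call was lost without unconfined replicate 1 (2.67, limma adjusted p 0.182) or 3 (3.87, 0.0579) and without confined replicate 2 (2.96, 0.0854) or 3 (3.32, 0.0622). It held in WKO without any single library, between 2.88 and 5.09, the lowest value without unconfined replicate 1 and the highest without unconfined replicate 3.

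Nr4a3 (chr4:48045153-48086447, plus strand), or Nor1, was nearly undetected before confinement. The unconfined libraries held 0 and 12 reads in WT and 4 and 3 in WKO, the confined ones 121, 77 and 144 in WT and 412, 168 and 345 in WKO. These correspond to 0 and 11.5, 3.95 and 3.10, 130, 90.3 and 116, and 323, 177 and 413 normalized counts. All confined libraries lay above all unconfined ones, with 90.3 as the smallest confined and 11.5 as the largest unconfined value. Summed over a group, the normalized read ratio of confined to unconfined cells was 19.7 in WT (95% interval 11.1 to 38.5) and 85.6 in WKO (41.4 to 214), intervals that cover counting error only. On the log2 scale the change was 4.98 in WT (SE 0.795, limma adjusted p 0.0107) and 6.00 in WKO (SE 0.795, limma adjusted p 0.00331), the latter the third highest of all tested genes. The WT value ranged from 3.16 without unconfined replicate 1, the library at 0, to 6.80 without unconfined replicate 3, and its call was lost without WT confined replicate 2 (limma adjusted p 0.0566). The WT value also did not pass without the mean-variance trend (limma adjusted p 0.0802). The sizes for this gene depend on the pseudocount.

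Ratios between members within a library were chosen after the values had been seen and are given as a description, with no test. The ratio of Egr1 to Egr2 was 0.281 to 0.553 in the unconfined libraries and 1.64 to 3.37 in the confined ones, with no overlap, and its mean on the log2 scale was 5.12-fold higher in confined cells. The ratio of Egr1 to its corepressor Nab2 was 0.326 to 0.445 unconfined and 2.07 to 10.6 confined, also with no overlap. Nr4a1 over Nr4a3 was lower in confined cells, at 0.344 of its unconfined value with genotypes weighted equally. This ratio carries the low unconfined Nr4a3 counts: its log2 difference of -1.54 was -0.46 with a pseudocount of 5, and -0.89 without WT unconfined replicate 1. Egr1 over Egr3, Nr4a1 over Nr4a2 and Nr4a1 over Egr1 differed by 1.14-, 1.25- and 1.22-fold, with overlapping libraries, and these differences changed sign when single libraries were left out.

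**Figure D4:**
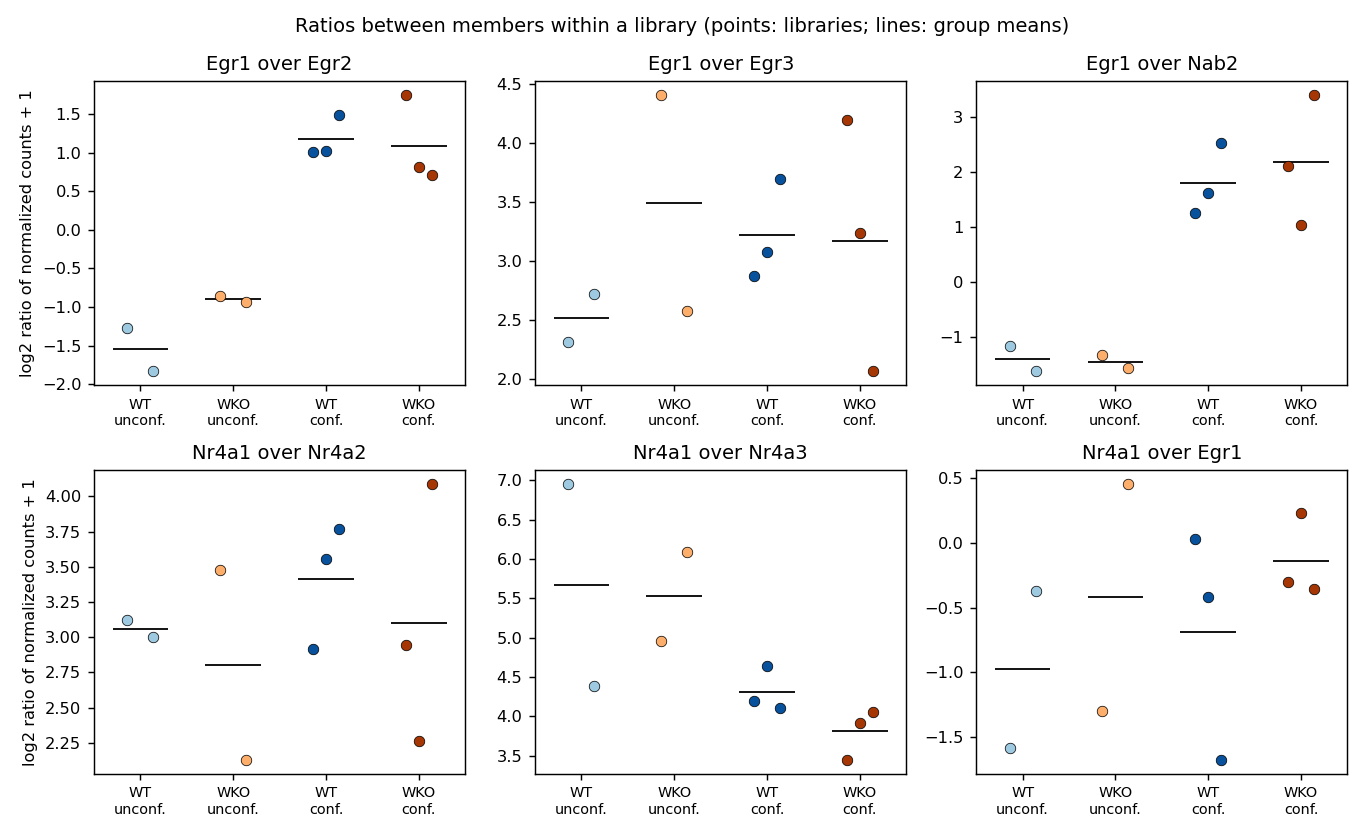
Log2 ratio of the normalized counts of 2 genes within each library, by group, with lines at group means. Confined and unconfined libraries separate for Egr1 over Egr2 and Egr1 over Nab2 and are intermixed for Egr1 over Egr3, Nr4a1 over Nr4a2 and Nr4a1 over Egr1.

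Counts per kilobase of exon allow the members to be set beside each other. Of the EGR sum (Egr1, Egr2 and Egr3), Egr2 made up 76.5% ± 5.52 (SD, n = 2) in unconfined WT cells and 69.0% ± 0.807 (SD, n = 2) in unconfined WKO cells. In confined cells the order was the reverse, with Egr1 at 59.0% ± 4.91 (SD, n = 3) of the WT sum and 57.3% ± 10.6 (SD, n = 3) of the WKO sum, and Egr2 at 34.5% ± 3.62 and 35.6% ± 7.39. The main EGR transcript was therefore Egr2 before and Egr1 after confinement in both genotypes. The NR4A sum had no such change of order. Nr4a1 held 89.9% in WT and 87.6% in WKO unconfined cells and 89.9% and 86.7% in confined cells. Per kilobase, the NR4A sum was 38.5 and 83.8 normalized counts in the unconfined and 627 to 783 in the confined WT libraries, against 47.4 and 95.5 and 933 to 2140 in those of WKO. The NAB sum per kilobase was 512 and 570 unconfined and 606 to 665 confined in WT, and 414 and 534 unconfined and 614 to 719.6 confined in WKO.

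In the limma fit, none of the 8 genes passed the adjusted threshold between genotypes in either condition. In unconfined cells 0 of 8 were called by limma (0.145% of all genes), and 0 had an unadjusted p under 0.05 (9.6% of all genes). edgeR called 0 as well, and so did DESeq2, which gave Egr3 no adjusted p. With the replicate number as a block, limma called Egr2 and Egr3, both lower in WKO (adjusted p 0.0347 and 0.0430). That block fits WKO confined replicate 5 and WT confined replicate 6 exactly, so neither enters its estimate of spread. Egr2, Egr3 and Nab1 were lower in both WKO libraries than in either WT library, which was also true of 22.7% of all genes. Their log2 differences were -1.01 (95% interval -2.26 to 0.24), -1.33 (-3.10 to 0.44) and -0.08 (-0.51 to 0.35), with limma adjusted p-values of 0.644, 0.675 and 0.949.

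In confined cells 0 of 8 were called by limma (2.59% of all genes), with 2 at an unadjusted p under 0.05 (16.8% of all genes), Nr4a1 and Nr4a2. The NR4A genes were higher in every WKO library than in any WT library, a separation found in that direction for 10.7% of all genes. The log2 difference was 0.86 for Nr4a1 (95% interval 0.11 to 1.62, limma adjusted p 0.233), 1.17 for Nr4a2 (0.08 to 2.27, limma adjusted p 0.260) and 1.37 for Nr4a3 (-0.19 to 2.92, limma adjusted p 0.365). edgeR called 0, while DESeq2 called Nr4a3 (adjusted p 0.00473) and limma with array weights called Nr4a2 (1.36, adjusted p 0.0493). The EGR and NAB genes overlapped between the genotypes, at log2 differences of 0.31, 0.39 and 0.36 for Egr1, Egr2 and Egr3 and 0.19 and -0.07 for Nab1 and Nab2. Those of the EGR genes rested on WKO confined replicate 5. Without it they were -0.18, -0.29 and -0.68, and those of Nab1 and Nab2 were -0.03 and 0.04. That library also had the highest stromal marker sum, 12098 against at most 3986 in any other library. With the mean stromal marker value as a covariate, the confined difference was -0.28 for Nr4a1 and -0.37 for Nr4a3 and stayed positive for Nr4a2 (1.44), none passing the test. The B cell marker sums given above were also higher in every confined WKO library than in any confined WT library. The neutrophil and progenitor sums overlapped, since WKO confined replicate 5 (7036) lay below WT confined replicate 3 (7994). That WKO library had the lowest sum of its group for both lists. The part of these markers in the values was not tested.

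**Figure D5:**
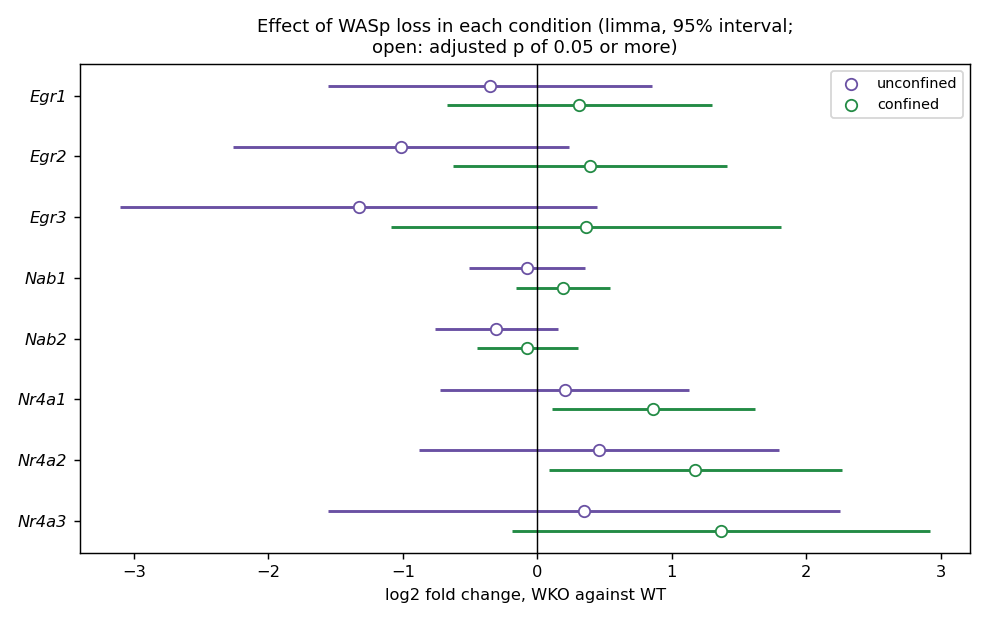
Difference between WKO and WT cells for the 8 genes in each condition, as limma's log2 fold change with its 95% interval. All points are open (adjusted p of 0.05 or more); in confined cells the intervals of Nr4a1 and Nr4a2 lie above 0 and the others include it.

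Whether confinement acted differently in the 2 genotypes was tested directly as the interaction. It was positive for all 8 genes, from 0.23 for Nab2 to 1.69 for Egr3 with a median of 0.69, and each had a limma adjusted p of 0.999. Leaving out single unconfined libraries turned it negative for Nr4a3 (-0.80 without WT replicate 3), Nr4a2 (-0.39 without WKO replicate 1) and Nab2 (-0.096 without WKO replicate 3). Without WKO confined replicate 5 it was 0.17, 0.72 and 0.65 for Egr1, Egr2 and Egr3, against 0.67, 1.41 and 1.69 with all libraries. For Nab1, Nr4a1 and Nr4a3 it was 0.044, 0.27 and 0.76 without that library, and for Nab2 and Nr4a2 0.34 and 0.82. None of the 8 had an unadjusted p under 0.05 with limma or edgeR and 1 had with DESeq2, and 0 of all genes were called by any of the tools (limma: 0.0% called and 258, or 2.07%, at an unadjusted p under 0.05). The 95% intervals were widest for Nr4a3 (-1.44 to 3.47) and Egr3 (-0.60 to 3.98), ran from -0.54 to 1.85 for Nr4a1 and -0.89 to 2.22 for Egr1, and were narrowest for Nab1 (-0.29 to 0.83) and Nab2 (-0.36 to 0.82). The confinement and genotype comparisons share their libraries, and their values are set side by side here for that reason only.

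The genes around these factors were described through lists. Of all tested genes, 0.891% were called higher and 0.265% lower with confinement in WT, and 1.49% and 0.233% in WKO. Between genotypes 0.145% were called in unconfined and 2.59% in confined cells. A count of 0 in a short list is close to these shares. Of 33 kinases and transcription factors that are known to induce EGR and NR4A genes (MAP kinases, SRF, ELK, CREB, MEF2 and their partners), 0 were called in any of the comparisons, and their median log2 fold change with confinement was 0.12 in WT and 0.14 in WKO. The 13 CHD4-NuRD partners of the NAB proteins and the 11 tested RXR partners and coregulators of NR4A receptors had 0 calls with confinement in either genotype. Between genotypes in confined cells, Mta3, a NuRD subunit, was higher in WKO by 0.48 (SE 0.108, limma adjusted p 0.0396), at 751 to 780.0 against 528 to 567 normalized counts. Rxra, the heterodimer partner of Nr4a1 and Nr4a2, was higher by 0.52 (SE 0.0949, limma adjusted p 0.0170), at 2047 to 2243 against 1452 to 1505. Of 4 tested zinc-finger genes of GC-rich sites, 0 were called.

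Among 20 tested genes described as EGR targets, 3 rose in each genotype and 0 fell, with medians of 0.57 in WT and 1.00 in WKO. Of all tested genes, 0.891% were called higher in WT and 1.49% in WKO, and 0.265% and 0.233% lower. The 3 were the same genes in both, namely Vegfa, Tnf and Gadd45b. Vegfa, the angiogenic growth factor, rose by 0.85 in WT and 1.63 in WKO (limma adjusted p 0.0427 and 0.000908). Tnf, the inflammatory cytokine, rose by 6.47 and 6.46 (limma adjusted p 0.00260 and 0.00132), from 69.1 to 71.2 in WT unconfined to 3293 to 13390 normalized counts in WT confined libraries. For comparison, 13 of 24 other immediate early genes rose in WT and 18 in WKO and 0 fell, with medians of 1.63 and 1.86. Klf4 rose by 3.26 and 4.03 and Fosb by 5.20 and 5.27. Egr1 and the NR4A genes rose by 3.27 to 4.98 in WT and 3.98 to 6.00 in WKO. Of these 24, Klf4 and Ccn1 were higher in confined WKO than in confined WT cells, by 1.08 and 3.16 (limma adjusted p 0.0196 and 0.0171). In that comparison 2.59% of all tested genes were called in either direction. Ccn1 was low in confined WT libraries, at 5.62 to 11.8 normalized counts against 27.4 to 211 in confined WKO libraries. Its log2 fold change with confinement was -2.52 in WT and -0.35 in WKO, called in neither. The lists were written with results of these data in view, so their counts are descriptive.

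The genes whose values ran most closely with each member over the 10 libraries, 6 of them confined, were found by Pearson's r of log2 values among 12447 other genes, as a description without a test. Those of Egr1 were Gdf15, Cxcl2 and Tnfaip3 (r 0.982, 0.982 and 0.981). Those of Nr4a1 were Ptgs2, Zc3h12a and Gem (0.994, 0.988 and 0.987), those of Nr4a2 were Per1, Spty2d1 and Klf4 (0.974, 0.968 and 0.959), and those of Nr4a3 were Fosl2, Ptgs2 and Gadd45b (0.976, 0.962 and 0.961). All of these were called higher with confinement in both genotypes. Those of Egr2 were Itga5, Stk40 and Zfp131 (0.977, 0.971 and 0.970), which were called in neither, as was Egr2. Egr3 ran with Plagl2, Slc38a2 and Zc3h12c (0.989, 0.986 and 0.984), which passed in WKO and not in WT, as Egr3 did. Nab1 ran with Sgms1, Lonrf1 and Bcor (0.993, 0.986 and 0.985), of which Bcor was called in WKO (limma adjusted p 0.0483), where Nab1 was not. The nearest genes of Nab2 had the lowest r, at most 0.927 (Hmgn1, then Eif1b and Pou3f1). Genes picked by r over the same libraries share much of a member's pattern by choice. That their calls resemble the member's is therefore no separate evidence.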

How the data were processed

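Each of the 10 mRNA libraries started from 5 ng of RNA. The authors deposited a signal for each gene, namely normalized read counts. Per the submitters' processing notes, FastQC, Trim Galore and STAR were used with GRCm38 (mm10); the annotation, counting tool and strand setting are not given in the sources used here. In every library 100% of values were whole multiples of 1 unit (relative tolerance 1e-06), so whole reads were recovered by division. The divisors equalled DESeq2 size factors to 4.3e-06; such scaling does not remove composition differences.

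Genes with a mean of at least 10 normalized counts (12455) were tested as log2(value + 1) with limma 3.58.1 (R 4.3.3; trended variance, 1 mean per group, all 10 libraries; Benjamini-Hochberg over all tested genes, threshold 0.05). The added 1 shrinks fold changes of low genes, but a fitted factor can also exceed the ratio of means where a library is at 0. For Nr4a3 the fitted factor was 31.6 in WT against a ratio of means of 19.4, and 64.0 against 86.5 in WKO. Contrasts were confined against unconfined within genotype, WKO against WT within condition, and their interaction. edgeR 4.0.16 on the recovered reads called 116 and 186 genes for confinement in WT and WKO, 15 and 319 for genotype unconfined and confined, and 0 for the interaction; DESeq2 1.42.0 was a further alternative. On simulated counts for the real genes, the WT confinement test called 53 of 100 genes changed 2-fold and 95 of 100 changed 4-fold, with 6 unchanged genes called. The simulated counts were drawn independently with 1 dispersion per gene, so no library stood apart over many genes. These shares may therefore not hold for the real libraries, where Egr3 in WT, at a fitted factor of 6.21, was not called. No library was left out, and no replicate pair agreed within sampling noise.

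All 8 members, Egr4 and Was are named. From each list, up to 4 genes with the smallest p among those called for confinement and up to 2 for genotype could be named, and for each member the 3 most correlated genes. Aff4, Coq10b and Dusp8 and the example markers were named after their values were seen. The members and lists were chosen with earlier results of these data known.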

Additional observations from a re-analysis of the deposited data

How the results depend on the processing

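With a library left out, 2 to 5 members were called for confinement in WT and 4 to 7 in WKO, and 0 in the genotype comparisons and interaction. Without the mean-variance trend 1 was called for confinement in WT (Nr4a1) and 3 in WKO (Egr1, Nr4a1 and Nr4a3). Array weights called 8 for confinement in WKO and 1 between confined genotypes (Nr4a2, limma adjusted p 0.0493). DESeq2 called 1 between confined genotypes (Nr4a3). For confinement in WKO, DESeq2, the replicate block and the stromal covariate called 6 each. DESeq2 gave Egr3 no adjusted p in any comparison, and a fit of only the groups compared was not run for the interaction, which needs all 4. All members kept a positive confinement effect in every alternative, except Nab2 in WT without WT unconfined replicate 1 (-0.0065; left-out range up to 0.29). With the stromal covariate, Nr4a2 in WT was not called (limma adjusted p 0.0515). Deviations of same-numbered libraries from their group means correlated at -0.1098 to 0.07639. Those of WT confined replicate 6 and WKO confined replicate 5 correlated at 0.241. With 2 or 3 libraries a group such deviations depend on each other, so this cannot settle whether replicate numbers pair the samples. With the numbers as a block 2 members were called between unconfined genotypes, Egr2 and Egr3, both lower (limma adjusted p 0.0347 and 0.0430). The block fits confined replicates 5 and 6 exactly, as no other library shares their numbers. The cause of these changes was not tested.

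Genes called ranged from 4 to 245 and 53 to 1948 for genotype (unconfined, confined), and from 20 to 455 and 33 to 1735 for confinement (WT, WKO). Genotype differences that changed sign were these. Unconfined Nr4a3 was -0.095 with a pseudocount of 5, -0.68 with edgeR, -0.70 with DESeq2 and -0.34 with the stromal covariate, and Nr4a1 -0.25 with that covariate. Confined Egr1, Egr2, Egr3 and Nab2 were -0.36, -0.093, -0.40 and 0.078 with array weights. Confined Egr1, Egr2, Egr3, Nab1 and Nab2 were -0.027, -0.071, -0.41, -0.031 and 0.038 with the replicate block and -1.64, -1.43, -2.01, -0.30 and 0.11 with the stromal covariate, where Nr4a1 and Nr4a3 were -0.28 and -0.37. The interaction was -0.0070 for Egr1 with array weights, and -0.51, -0.025, -0.030 and -0.030 for Egr1, Nab1, Nr4a1 and Nr4a3 with that covariate. With single libraries left out, unconfined differences ranged from -0.80 to 0.091 (Egr1), -0.63 to 0.022 (Nab2), -0.33 to 0.74 (Nr4a1), -0.64 to 1.57 (Nr4a2) and -1.48 to 2.17 (Nr4a3). Confined ones ranged from -0.18 to 0.79 (Egr1), -0.29 to 0.74 (Egr2), -0.68 to 0.89 (Egr3), -0.035 to 0.31 (Nab1) and -0.16 to 0.040 (Nab2), interactions from -0.096 to 0.56 (Nab2), -0.39 to 1.82 (Nr4a2) and -0.80 to 2.84 (Nr4a3), and log2 ratios from -0.27 to 0.64 (Egr1 over Egr3), -0.012 to 0.66 (Nr4a1 over Nr4a2) and -0.16 to 0.72 (Nr4a1 over Egr1). The settings for the ratios were chosen after seeing the data. At this depth Nr4a3 in unconfined cells, at 0 to 12 reads, limits every fold change of that gene.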
